A study of Caenorhabditis elegans with 4 samples.

Results

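In Caenorhabditis elegans a gene that has not been given a name is known by its sequence name, the name of the sequenced genomic clone followed by the number of the predicted gene on that clone, as in ZK813.3. The genes described here carry only such a name and gave far less signal from larvae of the L3 stage, the third larval stage, than from the mixed reference RNA. They were chosen by the measured values themselves: the log2 ratio, centred on the median of each array and averaged over the probes of a gene, was below -2 (over 4-fold lower) on each of the 4 arrays. This rule found 49 genes among 5812 with a sequence name and 14958 named genes in all. Because that comparison chose them, their ratios are given as a description and were not tested. The tables used here annotate no function for any of the 49, so none is given.

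All 4 samples are RNA of wild-type worms at L3 (called mRNA in the name of the sample and total RNA in the molecule label), each a numbered preparation in the second channel of its own 2-colour array, against a wild-type mixed reference in the first channel. The labels do not say what went into the reference, nor whether each preparation was its own culture, so an SD or p-value between preparations may reflect technical spread only. No label names the dyes either. That the ratio is L3 over reference is therefore only likely, read from the wording of the labels. Whole worms were measured, and fewer cells of a type and less RNA per cell cannot be told apart.

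By textbook knowledge, the hermaphrodite makes sperm late in larval life and oocytes in adulthood, when the intestine produces yolk and the uterus fills with embryos. Several proteins of the uterine lumen are encoded by genes named ule, for uterine lumin expressed, and the vit genes encode vitellogenins, the yolk proteins.

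Among the genes and probes with a value on all 4 arrays, 0.922% (177 of 19201) were below -2 on each array. For sequence-named genes this was 0.867% (49 of 5650), and for genes with a given name 1.12% (100 of 8913). The 49 genes had a median mean log2 ratio of -3.44, with means from -6.06 to -2.45, which is 66.6-fold to 5.48-fold lower in L3. The 100 genes with a given name under the same threshold had a median of -3.48 and means from -6.32 to -2.03. Of the 49, 11 had a mean below -4, 22 lay from -4 to -3 and 16 above -3. RefSeq lists each of them as protein-coding, 42 of them with 1 transcript. A single probe measured 47 genes, and a pair of probes measured Y62H9A.3 and Y62H9A.4.

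**Figure D1:**
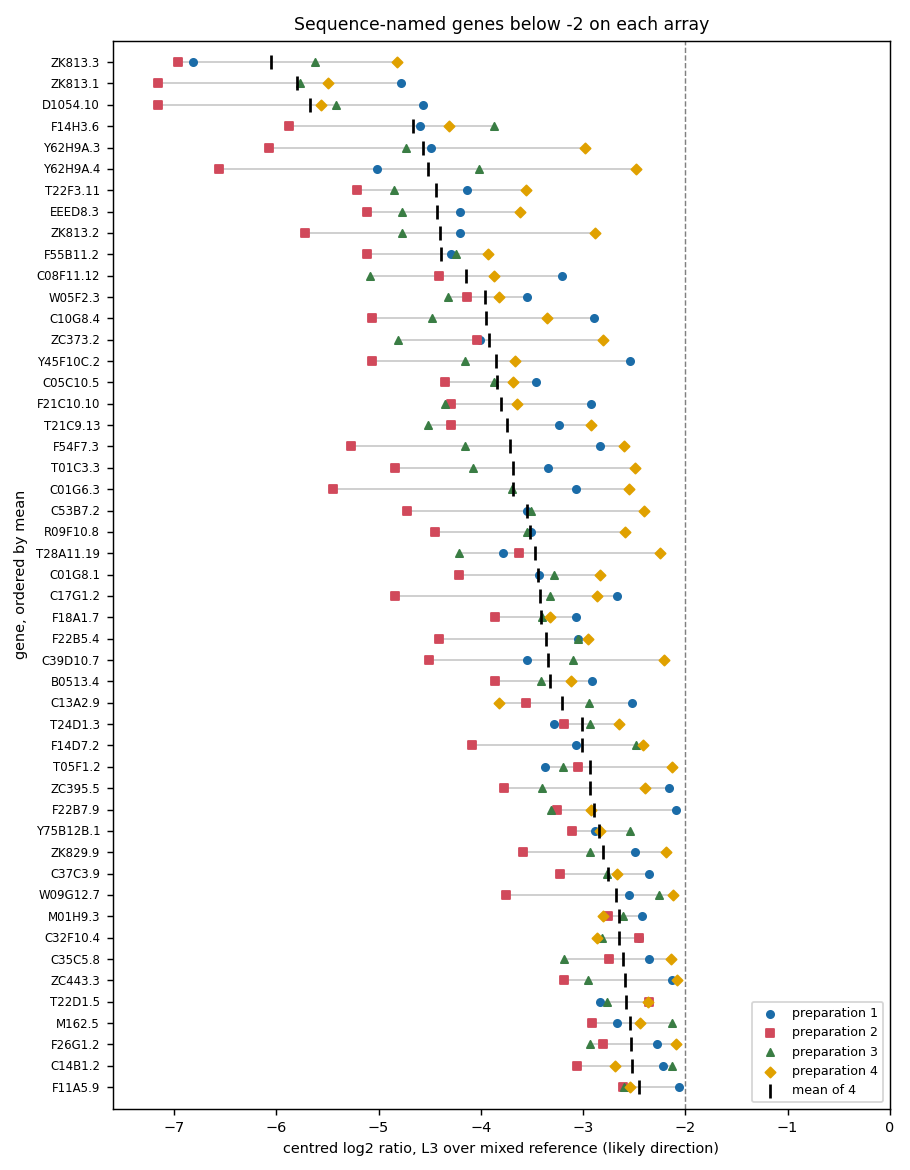
Centred log2 ratio (horizontal axis) of the 49 sequence-named genes (vertical axis, ordered by mean) in L3 preparations 1 to 4, with the mean as a black bar, a grey line from the lowest to the highest value and the threshold of -2 dashed. ZK813.3, ZK813.1 and D1054.10 stand below the rest, with means from -6.06 to -5.67, and preparation 2 holds the lowest value of 34 genes.

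The 3 genes with the lowest means, ZK813.3, ZK813.1 and D1054.10, lay at the depth of the vitellogenin genes. ZK813.3 had log2 ratios of -6.82, -6.97, -5.62 and -4.82 in preparations 1 to 4, a mean of -6.06 ± 1.02 (SD, n = 4, as for every mean below). On the first array no gene or probe with 4 values ranked lower. ZK813.1 lay at -4.78, -7.16, -5.77 and -5.49 (mean -5.80 ± 1.00), and D1054.10 at -4.56, -7.16, -5.42 and -5.56 (mean -5.67 ± 1.08). Both were highest in preparation 1, whereas ZK813.3 was highest in preparation 4. For comparison, the vitellogenin genes vit-5, vit-2 and vit-6 had means of -6.32 ± 0.93, -5.78 ± 0.76 and -5.03 ± 0.84. The order of ZK813.3, ZK813.1 and D1054.10 is not settled, since it changed between preparations.

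At this depth the deposited values are coarse, because they are log2 of ratios rounded to 0.001. The deposited ratio was 0.007 in preparation 2 for ZK813.1, for D1054.10 and for a probe of Y62H9A.4, so all of them carry the same centred value of -7.16, which stands for anything from -7.27 to -7.06. Of the 204 values of the members' probes, 11 from 7 genes came from ratios under 0.02. The rounding interval was at most 0.207 log2 units wide and had a median of 0.0146, so it is small beside the spread between preparations.

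Several of the lowest genes are close neighbours, which is visible from gene order along the chromosome and was not used to choose them. ZK813.3, ZK813.2 and ZK813.1 lie within 4 consecutive protein-coding genes of the X chromosome in RefSeq's WBcel235 order, with ZK813.7, which has no value here, between the last pair. ZK813.2 lay at -4.21, -5.72, -4.77 and -2.89 (mean -4.40 ± 1.18), so it was less low than its neighbours in each preparation. Beyond the group, sax-3, the nearest measured gene on one side, had a mean of 0.17, and dhs-27 on the other side -0.14. The vitellogenin gene vit-5 lies 6 places before ZK813.3, outside the window of 3 places used for the counts below, and was picked out after its place was seen.

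On another part of X, Y62H9A.3 and Y62H9A.4 are followed directly by stha-3 and ule-5, and these 4 consecutive genes were all below -2 on each array. Y62H9A.3 had log2 ratios of -4.49, -6.08, -4.73 and -2.98 (mean -4.57 ± 1.27), and Y62H9A.4 had -5.01, -6.56, -4.01 and -2.48 (mean -4.52 ± 1.72). The spread of Y62H9A.4 was the largest of all 49 genes, and its rank among the 19201 genes and probes, counted from the lowest, moved from 12 in preparation 2 to 193 in preparation 4. The neighbours stha-3 and ule-5 had means of -5.43 ± 0.73 and -4.94 ± 0.65, while the flanking Y62H9A.2 and Y62H9A.7 lay at 0.01 and -0.24.

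Each of these genes was read by a pair of probes, which did not always give the same ratio. For Y62H9A.4 the 1st probe gave -5.82, -5.97, -3.67 and -1.67 and the 2nd -4.21, -7.16, -4.35 and -3.28, so the 1st alone would not have met the threshold in preparation 4. For Y62H9A.3 the probes gave -4.99, -6.51, -4.81 and -2.99 against -3.99, -5.65, -4.65 and -2.97, and the probes met it on each array.

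Further members had ule genes beside or near them on autosomes. D1054.10 on chromosome V is followed directly by ule-3, at -5.67, -6.80, -6.62 and -4.82 (mean -5.98 ± 0.91), whereas D1054.9 on its other side lay at 0.72. On chromosome IV, ule-4 (mean -4.92 ± 0.81), C08F11.12 and Y45F10C.2 lie within 7 consecutive genes. There ule-4 is 3 places before C08F11.12 and 6 places before Y45F10C.2, so it is not directly beside either. C08F11.12 lay at -3.21, -4.41, -5.08 and -3.87 (mean -4.14 ± 0.80) and Y45F10C.2 at -2.54, -5.06, -4.16 and -3.67 (mean -3.86 ± 1.05). This stretch is not uniformly low, as the genes in between with a value, C08F11.10 and Y45F10C.1, lay at 0.12 and 0.03. Y45F10C.4, next to Y45F10C.2, lay outside the group through preparation 1 alone, with -1.82, -3.82, -4.39 and -2.43.

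**Figure D2:**
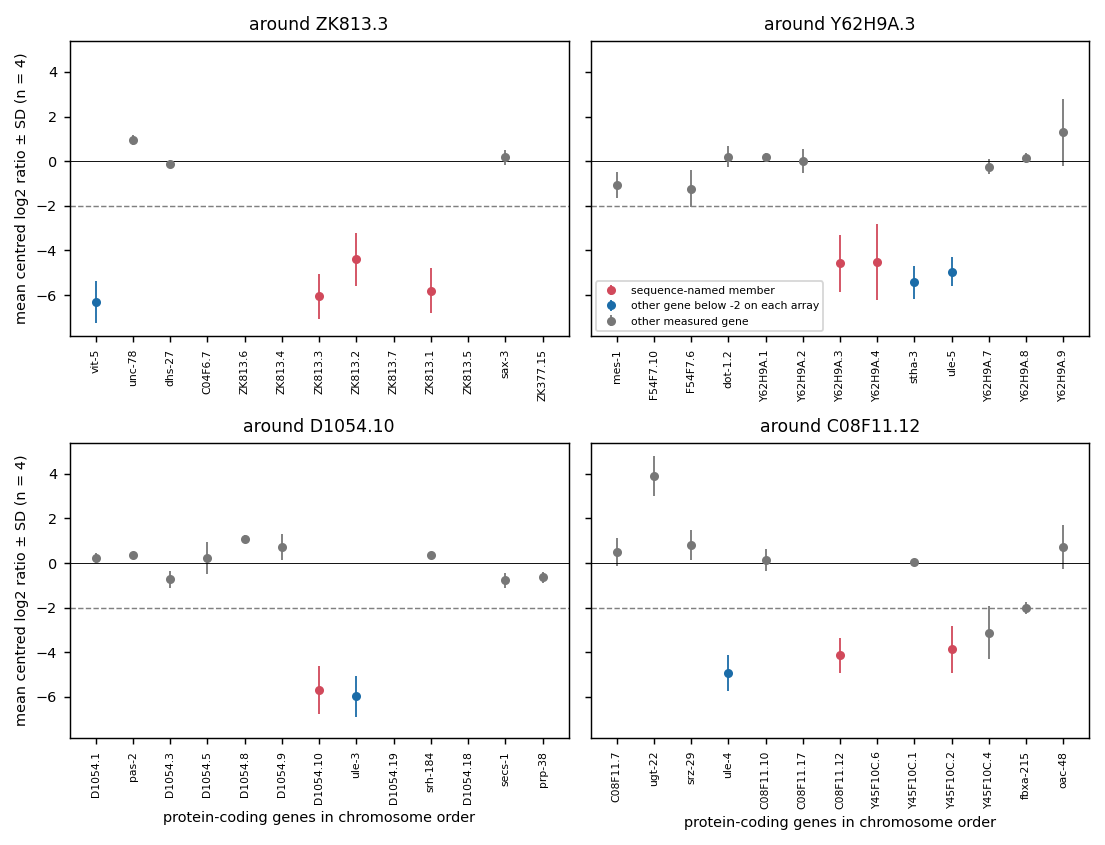
Mean centred log2 ratio ± SD of 4 preparations (vertical axis) for the protein-coding genes up to 6 places to either side of ZK813.3, Y62H9A.3, D1054.10 and C08F11.12 in chromosome order (horizontal axis, gene names). Members are red, other genes below -2 on each array blue, other measured genes grey, and a name without a point has no value here. Low genes stand directly beside genes near 0, such as Y62H9A.2 at 0.01 beside Y62H9A.3 at -4.57.

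In all, 11 of the 49 genes (22.4%) had another gene below -2 on each array within 3 places. This share was 21.0% for the 100 low genes with given names. It was 3.95% for the 5601 other sequence-named genes, of which 5197 could be placed in gene order. The 11 members fell in 7 groups that also held 7 genes with given names. The remaining groups were pairs, each of 1 member and a gene with a given name. F22B5.4 stood next to the cuticlin gene cut-3 (mean -3.56 ± 1.32), T01C3.3 next to fil-1 (mean -2.54 ± 0.58), named as a fasting-induced lipase, and ZC443.3 at 2 places from the UDP-glucuronosyltransferase gene ugt-18 (mean -2.47 ± 0.35). Among the measured genes directly beside a member, 8 of 71 (11.3%) were below -2 on each array, against 1.01% of those beside the other sequence-named genes and 9.88% of those beside the 100 low genes with given names. Of the neighbours that were not themselves members, 4 of 67 (5.97%) were low. Counted outside their own set, this was 4 of 150 (2.67%) for the low genes with given names and 68 of 3721 (1.83%) for the other sequence-named genes. The last share is not like the others. Leaving out the own set removes only genes that are not low there, but only low genes in the low sets. The neighbours within 3 places that did not meet the threshold had a median mean of -0.05. These shares were not tested. Whether neighbouring genes are similar enough in sequence for their probes to hybridise to several of them was not tested.

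The X chromosome held 12 of the 49 genes (24.5%), against 12 of the 100 low genes with given names (12%) and 16.7% of the other sequence-named genes. Chromosome V held 15, IV 8, II 6, I 5 and III 3. The X members were lower than the autosomal ones in preparations 1 to 3 but not in 4. Their medians were -3.78, -5.05, -4.09 and -2.70 in preparations 1 to 4, against -2.92, -3.86, -3.31 and -2.84 for the 37 on autosomes. The gap was thus -0.86, -1.19, -0.78 and 0.13, and it kept these signs with values as deposited, with arrays scaled to a common spread and with quantile normalization. The 7 X members outside the neighbour groups were set against all 37 on autosomes, those in groups included. Their gap was -0.59, -0.65, -0.20 and 0.25, nearer to 0 in preparations 1 to 3 and farther from it in 4. For the low genes with given names, the 12 on X against the 88 elsewhere, it was -0.48, -0.73, -0.68 and -0.15. These gaps were not tested, as the genes of a group are not replicates.

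**Figure D3:**
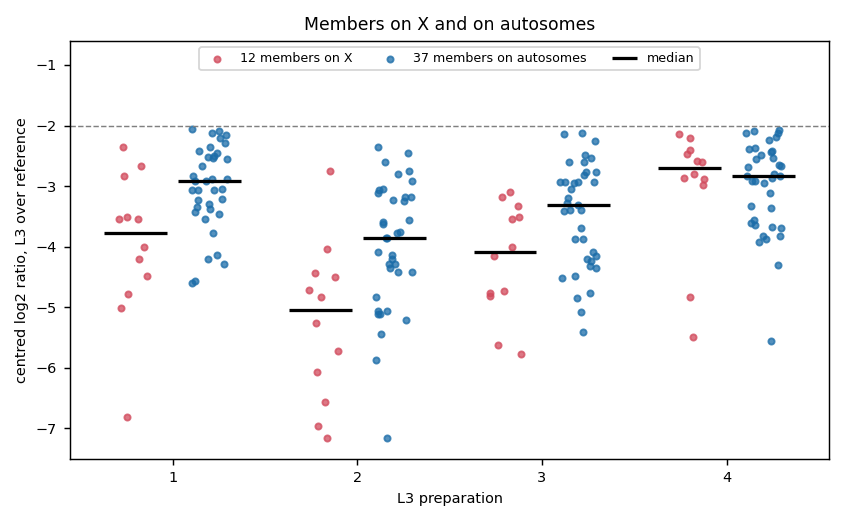
Centred log2 ratio (vertical axis) of the 12 members on X (red) and the 37 on autosomes (blue) in each L3 preparation (horizontal axis), 1 point per gene, black bars for medians, with the threshold of -2 dashed. In preparation 4 the medians of -2.70 and -2.84 nearly coincide, while in preparation 2 they lie at -5.05 and -3.86.

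Outside the neighbour groups the X members were ZC373.2, F54F7.3, C53B7.2, R09F10.8, C17G1.2, C39D10.7 and C35C5.8. ZC373.2 lay at -4.01, -4.04, -4.81 and -2.80 (mean -3.92 ± 0.83). F54F7.3 lay at -2.84, -5.27, -4.16 and -2.60 (mean -3.72 ± 1.24), lowest in preparation 2 and highest in 4. C53B7.2, R09F10.8 and C39D10.7 showed 1 shape, with the lowest value in preparation 2 (-4.72, -4.44 and -4.51) and the highest in preparation 4 (-2.41, -2.59 and -2.21). C17G1.2 had a mean of -3.42 ± 0.98 and C35C5.8 the least low mean of the X members, -2.61 ± 0.46. Beside C53B7.2 and C35C5.8 lay C53B7.3 and C35C5.9, genes that missed the threshold in preparation 1 and in preparations 1 and 2, with means of -2.44 and -2.05.

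On the autosomes, F14H3.6 was the lowest member without a low neighbour, at -4.60, -5.88, -3.87 and -4.31 (mean -4.66 ± 0.86). The genes before it on the chromosome, F14H3.5, F14H3.4 and F14H3.3, had means of -1.55 ± 0.81, -1.93 ± 1.05 and -1.68 ± 1.21, and each missed the threshold on some arrays. T22F3.11 (mean -4.44 ± 0.74), EEED8.3 (mean -4.43 ± 0.66) and F55B11.2 (mean -4.39 ± 0.50) were about equally low, and their order changed between preparations. EEED8.3 lay between EEED8.14 and EEED8.2, with means of -1.49 and -1.54. T22F3.11 lay between T22F3.10, at 1.22 with values on 3 arrays only, and srx-93 at 1.05.

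A further set of autosomal genes had similar means but differed in how far the preparations agreed. W05F2.3, at -3.55, -4.13, -4.32 and -3.82, and C05C10.5, at -3.47, -4.35, -3.87 and -3.69, had SDs of 0.34 and 0.38. C10G8.4, with nearly the mean of W05F2.3, spread from -5.06 in preparation 2 to -2.89 in preparation 1 (mean -3.95 ± 1.00). C01G6.3 spread further, from -5.44 in preparation 2 to -2.55 in preparation 4 (mean -3.69 ± 1.26). F21C10.10 (-3.81 ± 0.67), T21C9.13 (-3.74 ± 0.78) and T01C3.3 (-3.69 ± 1.00) lay between these extremes. T28A11.19, one of 9 members with their lowest value in preparation 3, ran from -4.21 there to -2.25 in preparation 4 (mean -3.47 ± 0.85).

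C01G8.1 (mean -3.44 ± 0.57) held the middle place among the 49. F18A1.7 and B0513.4 were close in all preparations, with means of -3.41 ± 0.33 and -3.33 ± 0.41. C13A2.9, M01H9.3 and C32F10.4 were the only 3 members lowest in preparation 4. C13A2.9 lay at -2.52, -3.56, -2.94 and -3.82 (mean -3.21 ± 0.59). The means of T24D1.3, F14D7.2, T05F1.2, ZC395.5, F22B7.9, Y75B12B.1, ZK829.9, C37C3.9 and W09G12.7 followed, from -3.01 to -2.67.

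The smallest spreads were found near the threshold. M01H9.3, at -2.43, -2.76, -2.61 and -2.80, had the smallest SD of all members, 0.17, on a mean of -2.65. C32F10.4 (mean -2.65 ± 0.22) and Y75B12B.1 (mean -2.84 ± 0.23) followed. Over the 49 genes lower means went with larger SDs (Spearman's rho -0.68, Pearson's r -0.62, across genes that share the same 4 arrays). A gene with a mean near -2 and a large spread fails the rule on some array, so the choice of members itself bears on this relation. The median SD was 0.70, against 0.47 for the low genes with given names and 0.36 for all genes and probes with 4 values. All these SDs are of arrays centred but not scaled. The arrays differed in spread, with a median absolute deviation over all probes of 0.38, 0.58, 0.39 and 0.28 in preparations 1 to 4. Whether the relation of mean and SD remains after scaling was not tested.

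The threshold itself separates genes with almost the same values. The members nearest to it, by the highest of their 4 values, were F22B7.9 (-2.09), F26G1.2 (-2.09), ZC443.3 (-2.08) and F11A5.9 (-2.06). The nearest sequence-named genes outside it were R04D3.3 (-1.98), T14B1.1 (-1.96), B0507.8 (-1.91) and C45B2.3 (-1.89), with means from -3.22 to -2.45. T22D1.5, M162.5 and C14B1.2 were the other members with means above -2.6, at -2.58, -2.54 and -2.52.

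Which genes were low was asked again of each array with the choice made on the other 3. Of 60 sequence-named genes below -2 in preparations 2, 3 and 4, 49 were below -2 in preparation 1 as well, all 60 were below 0, and the median was -2.89. The 49 are the members themselves, and the rule fixes this number for every array left out. What varies is how many genes the other 3 arrays choose. The same choice gave 49 of 50 in preparation 2 (median -4.17) and 49 of 51 in preparation 3 (median -3.40). In preparation 4 only 49 of 83 were below -2 with a median of -2.25, and 81 were below 0. Over all sequence-named genes, 1.89%, 4.30%, 2.62% and 1.47% were below -2 in preparations 1 to 4, with medians from -0.02 to 0.04. With arrays centred but not scaled, the number of members therefore rests on preparation 4 more than on the others. Preparation 4 also had the smallest spread over all probes, with a median absolute deviation of 0.28 against 0.58 in preparation 2. After scaling to a common spread, the members' medians were -2.86 in preparation 2 and -3.99 in preparation 4.

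**Figure D4:**
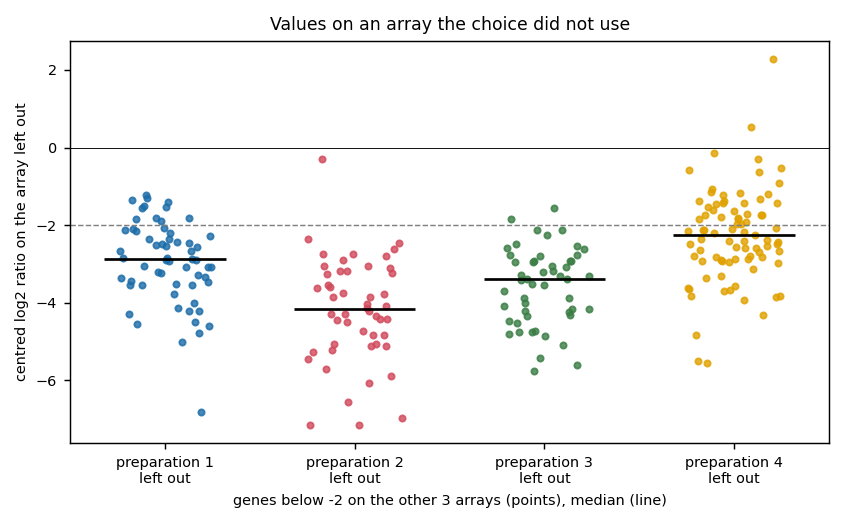
Centred log2 ratio on the array left out (vertical axis) of the sequence-named genes that were below -2 on the other 3 arrays, 1 point per gene and 1 column per array left out, with medians as black bars and the threshold of -2 dashed. Points above the dashed line number 11, 1, 2 and 34 for preparations 1 to 4, and only preparation 4 has values above 0.

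Some of the genes that preparation 4 kept out were among the lowest elsewhere; they are named here after their values were seen. T12G3.6 lay at -5.82, -5.11, -2.99 and 0.53 and C44B7.5 at -4.60, -6.38, -5.62 and -0.30. W02D9.7 lay at -5.71, -5.55, -4.36 and -1.37, and W02D9.6, of the same clone, at -4.51, -5.47, -3.87 and -1.62. D1086.6 changed sign, with -2.37, -3.29, -2.01 and 2.28. The uterine gene ule-1 showed the same pattern among genes with given names, at -4.11, -4.13, -3.48 and -1.01.

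The array titles carry dates of 2 months, which pair preparations 1 and 2 and preparations 3 and 4. The median of the members was -3.75 over the means of the first pair and -3.12 over the second, and 39 of 49 genes were lower in the first. Over all genes and probes 9657 of 19201 were lower in the first pair, and the low genes with given names had medians of -3.67 and -3.18. No gene or probe, member or not, passed a limma test of the difference between the months (0% of 19201, adjusted p of 0.436 or more), and 1328 had an unadjusted p under 0.05, among them 4 members. These were ZK813.3, Y62H9A.4, C39D10.7 and F14D7.2, whose difference (preparations 1 and 2 minus 3 and 4) was -1.67, -2.54, -1.37 and -1.13 (limma adjusted p from 0.528 to 0.694). Preparation 2 held the lowest value of 34 members and preparation 4 the highest of 26. For the 100 low genes with given names these counts were 55 and 64, and over all 19201 genes and probes 5524 and 5238. The order depends on scale. The arrays differed in spread, with a median absolute deviation of 0.38, 0.58, 0.39 and 0.28 over all probes. After scaling all arrays to the same spread, preparation 2 was lowest for 0 members and preparation 4 highest for 1, with medians of -3.18, -2.86, -3.46 and -3.99. With quantile normalization the medians were -3.36, -3.46, -3.37 and -3.34.

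Genes of known function were compared to place these depths. The eggshell genes cpg-2 and perm-2 had means of -4.72 ± 0.27 and -4.83 ± 0.20, pos-1, a maternal RNA-binding protein gene, -4.96 ± 0.46, the yolk receptor gene rme-2 -3.68 ± 0.57 and the adult collagen gene col-19 -3.54 ± 0.81. In limma, 10.8% of 19943 genes and probes were lower and 8.31% higher in L3, with an overall median of 0.02. All 4 measured genes of yolk and its receptor were lower (median -5.40), as were all 4 ule genes (median -4.93) and all 18 maternal RNA-binding protein genes (median -2.38). Of 16 eggshell and egg activation genes 13 were lower and 1 higher (median -3.21). Of these lists, 4, 3, 9 and 10 genes met the rule of -2 on each array. In their means over the 4 arrays, sperm genes did not reach that depth, with 30 of 41 lower, a median of -1.43 and 0 under the rule. The lower ones were all genes named msp or msd, apart from ssp-9 and ssp-10. The gsp and spe genes, ssp-16 and ssp-19 did not pass, with means from -0.54 to 0.58, nor did msp-59, msp-63 and msp-78. Of 16 early embryonic genes 3 were lower (median -0.16). Of 18 genes listed for germ line proliferation, P granules and meiosis 8 were lower and 0 higher (median -0.52). The lower ones were glp-1, glh-3, hop-1 and the meiotic genes him-3, htp-1, htp-3, syp-2 and syp-3. The pgl genes and the other glh genes did not pass. Of 6 genes listed under adult cuticle 1 was lower, col-19, and 1 higher, rol-6 (median 0.22). Of 11 body wall muscle genes 9 were higher and 0 lower (median 1.71). Of 20 intestinal genes 9 were higher, 1 was lower and 10 did not pass (median 0.56).

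The difference of preparation 4 minus preparation 2, a pair picked after their values were seen, varied between these lists. It had a median of 1.38 over the members, and of 2.22 over the 12 on X. For the yolk genes it was 1.62, for the ule genes 1.74, for the eggshell genes 0.64 and for the maternal RNA-binding protein genes 0.27. It was negative for the sperm genes (-1.11), the intestinal genes (-0.70), the germ line genes (-0.68) and the muscle genes (-0.39), and 0.02 over all genes and probes. The 100 low genes with given names had a median of 0.76. No test of these differences between lists was made, and the arrays differ in spread as given above.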

How the data were processed

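For each of 21632 probes the deposited table holds a log2 ratio per array. How the authors corrected background, normalized or filtered spots before that was not stated in the labels. At least 99.957% of an array's ratios, taken out of log2, fell on steps of 0.001 (tolerance 0.02 steps). Without spot brightness the distance from background cannot be given, and precision is limited by having 4 arrays. GEO's platform annotation paired 16450 probes with 1 gene, 247 with several and 4935 with none. Names were updated through Entrez numbers to RefSeq WBcel235 for 16360 probes, which altered 0 symbols. The build of the probes is not given, so WBcel235 served for names, chromosomes and gene order only.

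The median of each array was subtracted, then the probes of a gene were averaged. Genes and probes with a value on at least 3 arrays were fitted in limma 3.58.1 (R 4.3.3; intercept only, two-sided, Benjamini-Hochberg over all 19943, threshold 0.05), and the months in a second limma fit over 19201 with 4 values. The fits were tested on simulated data.

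The members, the gene lists and the rule for named genes were chosen with earlier results of these data known. That rule took the 15 lowest means, the 3 largest and 3 smallest SDs, members next to another member, on X or with over 1 probe, the 4 genes nearest either side of the threshold, and 9 comparison genes. Other members, and genes beside members, are named to complete the account, with their values known. Neighbours are protein-coding genes on either strand, in order of their start. Protein and promoter comparisons, part of the plan, were not made because no sequences were used here. Alternatives are given in the closing section.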

Additional observations from a re-analysis of the deposited data

Results flagged for a closer look

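In a pair of members 1 preparation stood far from the other 3. F22B5.4 lay at -3.05, -4.41, -3.04 and -2.95 in preparations 1 to 4, where the gap between preparation 2 and the nearest other value was 0.937 of the whole range. F11A5.9 lay at -2.06, -2.61, -2.60 and -2.54, where preparation 1 stood apart with a gap of 0.881 of the range. Both exceed Dixon's 95% critical value for 4 samples, which chance passes in about 1 of 20 groups. In all 60 groups were examined: the 49 members, 10 gene lists and the median of the members. Both genes stay below -2 without the value that stands apart, which the rule fixes, as it asks this of every array.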

How the results depend on the processing

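The number of members depended on the threshold and, with arrays centred but not scaled, on preparation 4. It was 90 with a threshold of -1.5 on each array, 28 with -2.5, and 115 with a limma adjusted p under 0.05 and a mean below -2. Leaving out 1 preparation gave 50 to 83 members, the 83 without preparation 4. Every other planned setting gave 48 to 62, of which 42 to 49 were among the 49. Scaling arrays to a common spread lost M01H9.3, C32F10.4, C35C5.8, T22D1.5, M162.5, F26G1.2 and F11A5.9 and gained 14 genes, and quantile normalization lost C32F10.4 and T22D1.5 and gained 15. Each gene lost was above -2 in preparation 2 only. The median of the 49 stayed between -3.72 and -3.16 when a preparation was left out and between -3.45 and -3.44 under the other settings. Counts of genes passing in limma ranged from 1979 to 2962 without 1 preparation, with 2043 without preparation 1 and 1979 without 3, against 3806. With the title month as a random block (correlation -0.117) 4489 passed. The month difference gave 0 to 123 genes without 1 preparation, the 123 without preparation 1, where preparation 2 alone stands for its month and is assumed to vary like the others. The remaining results were examined under settings chosen after seeing the data. Members with a low gene within 3 places numbered 11 to 17 (of 50 to 83) without 1 preparation and members on X 12 to 20, in both cases highest without preparation 4. Members lowest in preparation 2 numbered 0 with scaled arrays and 12 with quantile normalization, and members highest in preparation 4 numbered 1 and 15, against 34 and 26; the causes were not tested. No paired analysis was possible because there is a single group. The number of arrays, and for the lowest genes the rounding of the ratios, limit these values.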

Other observations

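Of the probes without a gene name here, or paired with several genes, 28 of 4638 with 4 values were below -2 on each array. Over all genes and probes with 4 values this was 177 of 19201 (0.922%). The 28 probes were left out of the members because the rule needs a gene name, and they were given none.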
